A study of Mus musculus with 3 samples.

Results

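The RNA levels of 10 genes for calcium-binding buffer and sensor proteins were read in single cells of the mouse nucleus accumbens. The genes were taken by symbol from the 28001 features of the deposited table: Calb1, Calb2, Pvalb, Hpca, Hpcal1, Hpcal4, Necab1, Necab2, Necab3 and Ncald. All 10 symbols were found. In GRCm38, the assembly that mm10 names, 4 of them lie on chromosome 4: Necab1 (chr4:14952245-15149794), Calb1 (chr4:15881264-15908064), Hpcal4 (chr4:123183227-123194701) and Hpca (chr4:129111570-129122036). The others are Necab3 (chr2:154544399-154558890), Calb2 (chr8:110137502-110168210), Necab2 (chr8:119446719-119472640), Hpcal1 (chr12:17690856-17791933), Ncald (chr15:37366175-37792570) and Pvalb (chr15:78191114-78206400), by GENCODE annotation. The study comprised 3 samples of a single group, all from Thy1::ChR2 mice, which carry channelrhodopsin under the Thy1 promoter, and all labelled with FLiCRE while ChR2 was stimulated in the nucleus accumbens. The tissue was a coronal dissection of 400 um, and no unstimulated or unlabelled mice are among the samples. Age, sex, the number of mice per sample and the promoter of the FLiCRE constructs are not given in the sources used here.

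FLiCRE is a recorder of neuronal activity. Where light meets raised intracellular calcium, the TEV protease can cut, and the tTA transcription factor is released to switch on a reporter, taken here to be the mCherry feature of the table. Calcium that enters a neuron is caught within milliseconds by EF-hand proteins. Buffers such as calbindin (Calb1), calretinin (Calb2) and parvalbumin (Pvalb) mainly limit the size and duration of the signal. Sensors of the neuronal calcium sensor family, to which hippocalcin (Hpca), its relatives Hpcal1 and Hpcal4 and neurocalcin delta (Ncald) belong, change shape on binding calcium and expose a myristoyl group that carries them to membranes. Necab1, Necab2 and Necab3 are neuronal EF-hand proteins with an added monooxygenase-like domain. In the striatum, calbindin is a classical protein of spiny projection neurons, and parvalbumin marks fast-spiking interneurons.

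The table pools 3 libraries, told apart by the suffix of the cell barcode. Nothing ties a suffix to a numbered sample, so the library number is only a name. Except in the last comparison, of labelled with unlabelled neurons, p-values rest on the spread between these libraries, whose animals are not described. That spread was estimated with the help of all genes, so a p-value does not reflect a gene's own spread alone. A 2-sided exact test over 3 libraries cannot go below p = 0.25. After filtering, 2306, 5783 and 1834 cells remained. Their median depth was 986, 2084 and 2674 UMIs (a UMI tags each captured RNA molecule, so that it counts once), and their sums were 2788685, 14563414 and 6267259 UMIs. They shared 13 (1 and 2), 7 (1 and 3) and 22 (2 and 3) barcode sequences. Levels are CPM, a gene's UMIs divided by all UMIs of the summed class and scaled in the usual way, given in the order of libraries 1, 2 and 3. Levels are compared between classes and not between genes. Means are over 3 libraries with their SD.

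Cells were classed by marker genes that include none of the 10. The D1 gate (Drd1, Tac1, Pdyn and Isl1) held 254, 1384 and 231 cells and the D2 gate (Drd2, Adora2a, Penk, Gpr6 and Sp9) held 295, 1020 and 295. Together these are called spiny neurons. Other gates held 57, 172 and 86 glutamatergic neurons, 10, 107 and 35 Tshz1-Pcdh8 neurons, 9, 36 and 8 Sst-Npy interneurons and 9, 26 and 6 Pthlh interneurons, the fast-spiking type gated here without Pvalb. Cholinergic cells numbered 9, all from library 2. A further 205, 797 and 239 cells passed as neurons by general neuron markers but fell in none of these gates. They are counted among all gated neurons, which numbered 839, 3551 and 900. Gates are cuts on counts and not discrete types. Of 1869 D1-gated cells 9.36% had exactly the required 2 UMIs and 44.8% held at least 1 UMI of the D2 list, and of 1610 D2-gated cells these shares were 2.98% and 34.8%. The spiny gates carried Ppp1r1b, the striatal phosphoprotein DARPP-32, at 2087 CPM (D1) and 1911 CPM (D2), and the glutamatergic gate carried Slc17a7, a vesicular glutamate transporter, at 1730 CPM. Spiny neurons lack Slc17a7 as a rule and showed 18.1 CPM (D1) and 26.95 CPM (D2) of it. The glutamatergic gate in turn held 277.6 ± 98.9 CPM of Ppp1r1b, against 76.2 ± 58.0 CPM in the pooled gated non-neuronal cells.

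Free RNA in droplets gives UMIs to cells that do not make a gene, and this background differed between libraries. Calb1 stood at 1.90, 59.2 and 9.53 CPM in the pooled gated non-neuronal cells, and Hpca at 20.3, 61.0 and 26.1 CPM. Library 2 was the highest for both genes. Its part in the results below was not tested. In microglia, which serve as a class without neuronal RNA, 0.503%, 8.49% and 2.36% of cells held a Calb1 UMI at a median depth of 994, 1022 and 1109 UMIs per cell.

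Promoter sequences are shown for the 3 hippocalcin-family genes that differed between D1-gated and D2-gated neurons, because they belong to one family and did not differ in the same direction. RefSeq promoter windows (GRCm38.p6) were found for 6 of the 10 genes. The 250 bases before the RefSeq start are printed 5′ to 3′ on the gene's strand, with each GGGCGG (the GC box, on either strand) in capitals. Hpca has 3 such windows, of which the one farthest upstream is shown. The RefSeq starts of Hpca and Hpcal4 lie downstream of the GENCODE gene starts given above, so their windows fall inside the GENCODE genes.
Hpca, chr4:129121748-129121997, minus strand: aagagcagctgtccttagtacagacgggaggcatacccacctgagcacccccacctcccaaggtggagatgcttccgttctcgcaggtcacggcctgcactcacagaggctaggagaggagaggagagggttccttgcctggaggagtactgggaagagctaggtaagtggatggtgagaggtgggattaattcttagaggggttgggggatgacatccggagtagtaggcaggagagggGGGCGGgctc
Hpcal1, chr12:17690559-17690808, plus strand: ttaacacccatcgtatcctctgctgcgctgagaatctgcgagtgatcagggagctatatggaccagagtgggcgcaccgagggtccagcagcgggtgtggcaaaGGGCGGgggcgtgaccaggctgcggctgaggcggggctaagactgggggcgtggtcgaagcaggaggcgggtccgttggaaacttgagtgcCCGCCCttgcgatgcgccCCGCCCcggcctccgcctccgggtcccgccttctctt
Hpcal4, chr4:123183254-123183503, plus strand: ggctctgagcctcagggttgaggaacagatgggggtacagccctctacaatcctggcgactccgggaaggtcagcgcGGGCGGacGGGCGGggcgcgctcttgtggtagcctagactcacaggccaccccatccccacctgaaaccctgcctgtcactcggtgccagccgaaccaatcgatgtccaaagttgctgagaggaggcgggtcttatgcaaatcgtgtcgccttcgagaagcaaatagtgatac
The Hpca window held 1 GC box, the Hpcal1 window 3 and the Hpcal4 window 2. Of 32536 promoter windows of this length, 33.0% hold at least 1. The half-site TGACG of the cAMP-response element, searched on either strand, was in 0 of the 3 windows and is in 17.9% of all. These matches describe letters only.

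Across the neuron classes, the 10 genes showed different patterns. Calb1, Hpca and Necab2 stood high in the spiny gates, Necab3 and Ncald were highest in the glutamatergic gate, Pvalb was highest in the Pthlh gate, and Calb2 gave few UMIs in any neuron gate. The orders of means that follow are descriptions. Where neighbouring classes had overlapping library values, this is said.

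**Figure D1:**
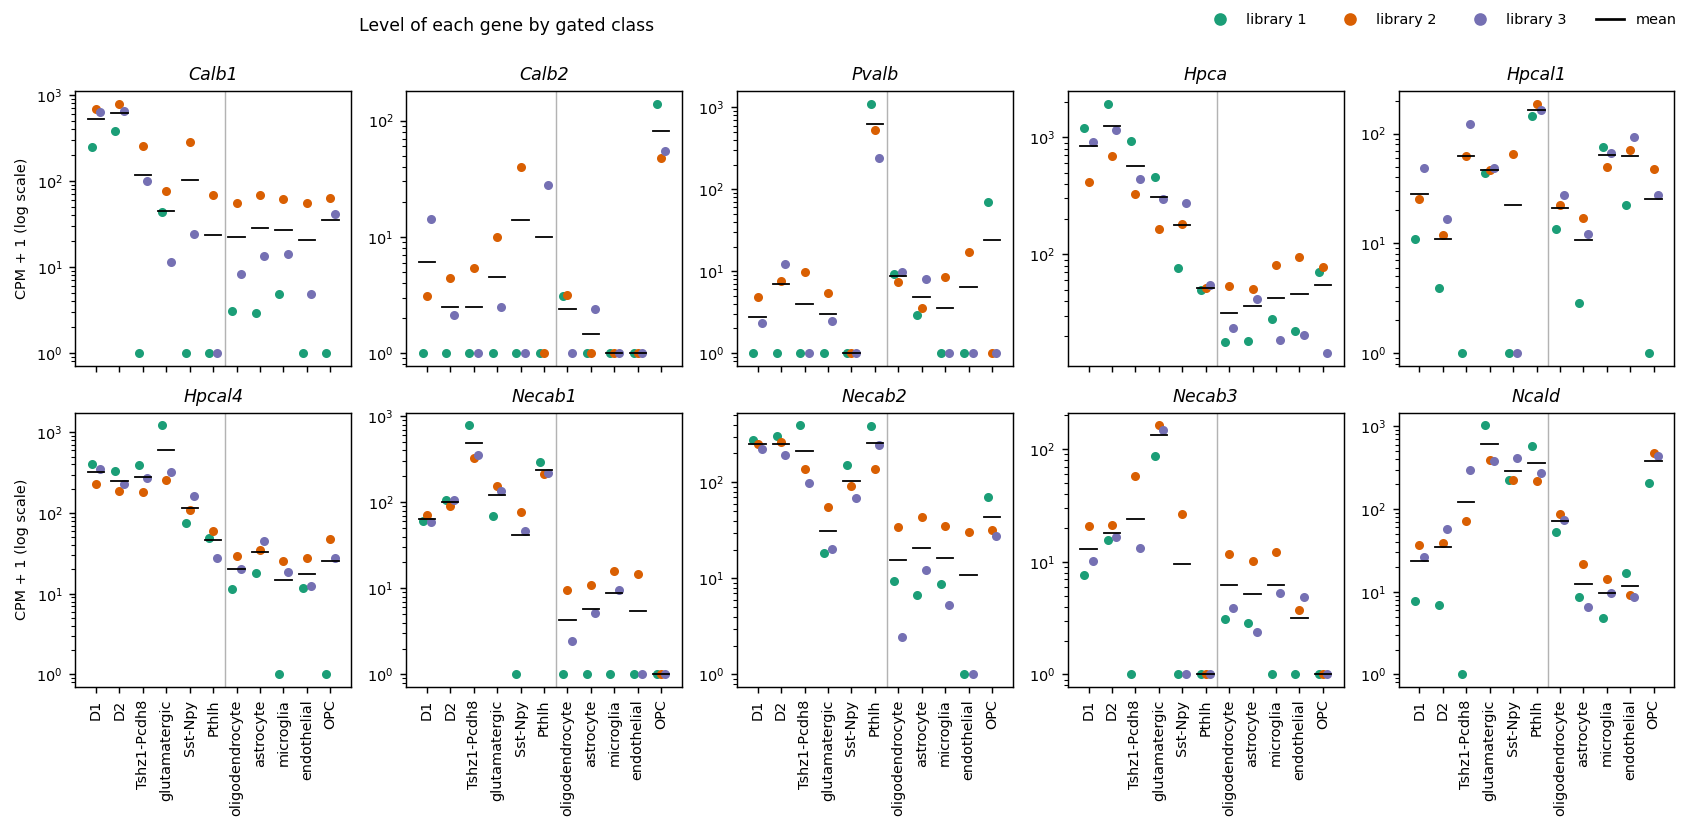
Level of each of the 10 genes (y axis, CPM + 1 on a log scale) in neuron classes and, right of the grey line, glial and vascular classes, with 1 point per library and a bar at the mean. Pvalb in Pthlh-gated neurons (243 to 1112 CPM) and Necab3 in glutamatergic neurons (86.0 to 163 CPM) stand clear of every other class plotted, while the Calb1 points of D1-gated and D2-gated neurons overlap.

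Among the buffers, Calb1, calbindin, was at 249, 680 and 628 CPM in D1-gated neurons. In D2-gated neurons it was at 380, 787 and 648 CPM. In both gates library 1 was the lowest, and the gates overlapped. A Calb1 UMI was found in 20.9% (95% exact Clopper-Pearson interval 16.04 to 26.4), 56.1% (53.5 to 58.8) and 65.8% (59.3 to 71.9) of D1-gated cells. Intervals and floors here cover counting error only. With cells thinned to 1000 UMIs (110, 73 and 16 shallower cells left out) these shares were 18.9%, 35.7% and 42.0%. The Calb1 mean was lower in the other gates, at 116.6 ± 127 CPM in Tshz1-Pcdh8 neurons, 101.8 ± 157 in Sst-Npy interneurons, 43.1 ± 32.8 in glutamatergic neurons and 22.6 ± 39.1 in Pthlh interneurons. These 4 overlapped with their neighbours in the order. Tshz1-Pcdh8 neurons were at 0, 252 and 97.6 CPM and Sst-Npy interneurons at 0, 283 and 22.8. The values of 0 come from 10 and 9 cells of library 1, which allows levels of up to 394.5 and 224.6 CPM. The 9 cholinergic cells had 343 CPM on 33 UMIs.

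Calb2, calretinin, gave few UMIs. D1-gated neurons held 0, 8 and 10 UMIs and D2-gated neurons 0, 10 and 1, which is at most 13.2 CPM in any library. Cells with a Calb2 UMI made up at most 0.866% of D1-gated cells in any library. All gated neurons together were at 2.06, 4.39 and 4.72 CPM and gated non-neuronal cells at 1.90, 1.82 and 1.76. These means hide that the neuronal UMIs were bunched in few cells. The 2, 44 and 15 UMIs of neurons lay in 2, 17 and 6 cells, and the 3, 7 and 5 of non-neuronal cells in 3, 7 and 5. The gene failed the low-count filter in all 6 comparisons, so no test of it is given. The highest values lay outside neurons: oligodendrocyte precursors (OPC), the dividing cells that give rise to oligodendrocytes, had 139, 46.4 and 53.4 CPM. That rests on 2, 3 and 4 UMIs among 12, 45 and 25 cells. Microglia had 0 Calb2 UMIs in 691 cells, which allows a level of up to 2.95 CPM, and endothelial cells 0 in 438, which allows up to 3.67.

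Pvalb, parvalbumin, was at 1112, 534 and 243 CPM in Pthlh-gated interneurons, on 23, 63 and 9 UMIs. A Pvalb UMI was present in 7, 13 and 1 of the 9, 26 and 6 cells. Spiny neurons had 0, 5.02 and 6.69 CPM, and the pooled non-neuronal cells 3.80, 5.71 and 5.999 CPM, so their summed levels were alike. In libraries 2 and 3 the 34 and 11 UMIs of spiny neurons lay in 27 and 4 cells. The 22 and 17 UMIs of non-neuronal cells lay in 22 and 14 cells. Whether some spiny-gated cells express the gene was not tested. Sst-Npy interneurons had 0 Pvalb UMIs in 53 cells, which allows up to 5.66% of cells with a UMI and a level of up to 14.1 CPM. It does not limit the share of cells that express the gene. Every library of the Pthlh gate was above every library of the next class in the order. With the stricter gate (3 markers) 23 Pthlh-gated cells remained, as few as 3 in a library, and Pvalb was at 426 ± 373 CPM with a library at 0.

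Among the sensors, Hpca, hippocalcin, was highest in the spiny gates. It was at 1201, 415 and 919 CPM in D1-gated and 1937, 691 and 1143 CPM in D2-gated neurons. Library 1 was highest and library 2 lowest in both gates, the reverse of Calb1 for library 1. A Hpca UMI was in 70.1%, 56.3% and 83.1% of D1-gated cells and in 81.7%, 69.5% and 83.4% of D2-gated cells, against 2.51%, 11.2% and 3.15% of microglia. Tshz1-Pcdh8 neurons had 562 ± 315 CPM, glutamatergic neurons 305.5 ± 146, Sst-Npy interneurons 176.2 ± 99.5 and Pthlh interneurons 51.0 ± 2.81. Pthlh interneurons lay below every library of the Sst-Npy gate, also with the stricter gate (24.9 ± 21.9 CPM against 162 ± 90.8). The counts were only 1, 6 and 2 UMIs in the Pthlh gate and 1, 28 and 12 in the Sst-Npy gate. In library 1 each value thus rests on 1 UMI. The other neighbours in the order overlapped. The Pthlh level of 48.3, 50.8 and 53.9 CPM lies near the non-neuronal level of library 2.

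Hpcal4, a hippocalcin-like sensor, was at 402, 228 and 347 CPM in D1-gated and 333, 186 and 231 CPM in D2-gated neurons. Glutamatergic neurons had 1230, 255 and 320 CPM, so their mean of 602 ± 545 rests on library 1. Sst-Npy interneurons were at 114.6 ± 42.7 CPM and Pthlh interneurons at 44.9 ± 16.4, each clear of its neighbours in the order. These levels rest on few counts, 1, 17 and 7 UMIs in the Sst-Npy gate and 1, 7 and 1 in the Pthlh gate. With the stricter gate the Pthlh mean was 22.4 ± 38.8 CPM, with a highest library of 67.3, and overlapped with the Sst-Npy gate (96.3 ± 42.6, lowest 63.5).

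Hpcal1, also called VILIP-3, had another distribution. It was at 145, 186 and 162 CPM in Pthlh-gated interneurons, on 3, 22 and 6 UMIs. These values lay above every library of the other gates with 3 libraries. Among those, library 1 had 0 UMIs in 10 Tshz1-Pcdh8 neurons and 9 Sst-Npy interneurons, which allows levels of up to 394.5 and 224.6 CPM. Spiny neurons were at 6.25, 18.6 and 30.4 CPM, below the pooled gated non-neuronal cells of each library (21.6, 30.35 and 34.9 CPM). Microglia (73.7, 49.1 and 65.1 CPM) and endothelial cells (21.3, 70.4 and 92.7 CPM) held more than spiny neurons in 3 of 3 libraries. The 9 cholinergic cells had 208 CPM, and 88.9% of them held a Hpcal1 UMI, at a median of 11694 UMIs per cell.

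Ncald, neurocalcin delta, was low in spiny neurons, at 6.25, 36.9 and 42.0 CPM. It reached 1040, 389 and 385 CPM in glutamatergic neurons, 580, 220 and 270 CPM in Pthlh interneurons and 225, 225 and 411 CPM in Sst-Npy interneurons. These 3 classes overlapped with each other, and all 9 of their values exceeded the spiny ones. Among glia it was at 208, 480 and 440 CPM in OPC and 52.3, 86.2 and 73.1 CPM in oligodendrocytes, and at 3.88, 13.2 and 8.69 CPM in microglia. The share of cells with a Ncald UMI was 25.0%, 48.9% and 68.0% in OPC, at medians of 670, 1287 and 2727 UMIs per cell. The Ncald gene overlaps 6 other annotated genes on the same strand, and how reads in such overlaps were assigned is not given in the sources used here. The other 9 genes overlap no annotated gene on their own strand.

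Necab1 was highest in Tshz1-Pcdh8 neurons, at 789, 323 and 354 CPM on 6, 73 and 29 UMIs. These neurons are a spiny-neuron group apart from the classical D1 and D2 types. The values lay above all libraries of the next class, Pthlh interneurons, at 290, 212 and 216 CPM. D2-gated neurons had 106, 90.6 and 105 CPM and D1-gated neurons 59.9, 69.5 and 58.3. This class was singled out after its values were seen and no test of it was planned. With the stricter gate, which asks for 3 of its markers, 20 cells and 16 Necab1 UMIs remained, with a mean of 347 ± 316 CPM and a library at 0.

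Necab2 was at 276, 248 and 220 CPM in D1-gated, 300.3, 264 and 194 CPM in D2-gated and 387, 135 and 243 CPM in Pthlh-gated neurons. These overlapped. It was lowest in glutamatergic neurons, at 17.2, 54.8 and 19.3 CPM, against 6.34, 36.1 and 4.59 CPM in non-neuronal cells. Sst-Npy interneurons lay between, at 150, 89.95 and 68.5 CPM.

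Necab3 was highest where Necab2 was lowest. It was at 86.0, 163 and 147 CPM in glutamatergic neurons and at 10.9, 20.1 and 12.8 CPM in spiny neurons. Among glutamatergic neurons 15.8%, 46.5% and 57.0% held a Necab3 UMI, and 1.09%, 5.07% and 3.04% of spiny neurons did. Non-neuronal cells had 1.27, 9.86 and 2.47 CPM. Pthlh interneurons had 0 Necab3 UMIs in 41 cells, which allows a level of up to 17.1 CPM.

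Whether the genes separate neurons from other cells was tested on the summed counts of all gated neurons and gated non-neuronal cells. The neurons include those that fell in no class. Of 9 genes tested, 7 were higher in neurons and 0 lower by edgeR's quasi-likelihood test with Benjamini-Hochberg adjustment over all genes. In this comparison 65.1% of 12512 genes were called in either direction, 31.0% higher and 34.1% lower. The median log2 fold change was 3.38 over the 9 genes and -0.05 over all genes tested. Necab1 (115.1 ± 9.10 against 4.28 ± 5.42 CPM) had a log2 fold change of 4.41 ± 0.63 (SE, adjusted p = 0.00103), Calb1 one of 4.32 ± 0.55 (adjusted p = 0.000632) and Hpca one of 4.06 ± 0.54 (adjusted p = 0.000778), each higher in 3 of 3 libraries. Necab2, Hpcal4 and Necab3 followed at 3.58, 3.38 and 2.55. Ncald had the smallest called change, 1.20 ± 0.32 (adjusted p = 0.0158), and without library 3 its adjusted p was 0.0677. Hpcal1 was not called (29.9 ± 13.96 against 28.9 ± 6.80 CPM, log2 fold change -0.42, adjusted p = 0.164). Pvalb was not called either (14.2 ± 8.58 against 5.17 ± 1.19 CPM, log2 fold change 0.76, adjusted p = 0.143).

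Whether D1-gated and D2-gated neurons of the same library differ was tested next. Of the buffers, Calb2 and Pvalb failed the low-count filter and were not tested, and Calb1 was not called. The hippocalcin-family sensors split both ways. Hpcal1 and Hpcal4 were higher in D1-gated neurons, while Hpca and Necab1 were higher in D2-gated ones. That is 4 of 8 genes tested, 2 in each direction, where 2.66% of 8786 genes were called, 1.31% higher and 1.35% lower. The median log2 fold change, D1 over D2, was -0.20 over the 8 genes and -0.002 over all genes.

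**Figure D2:**
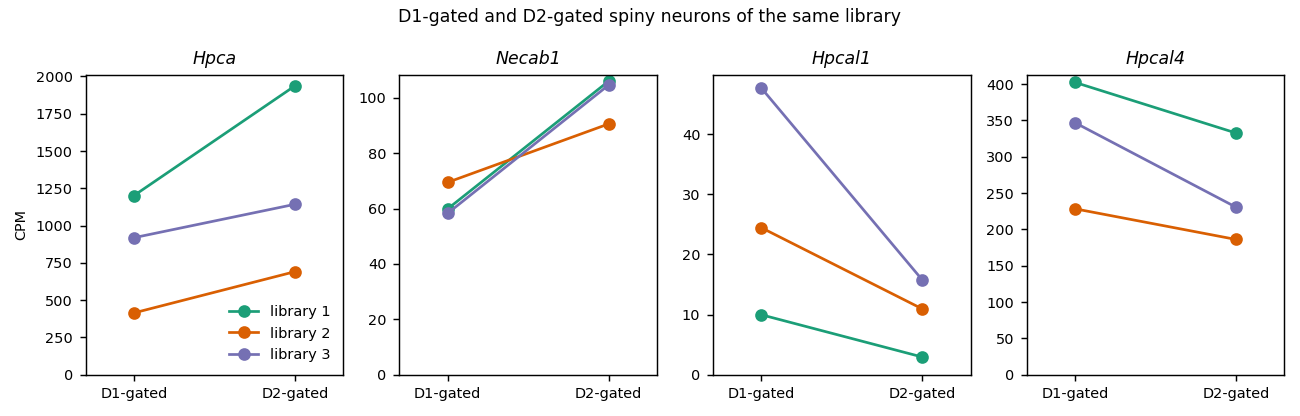
CPM of the 4 genes that differed between D1-gated and D2-gated neurons, with 1 line per library joining its 2 classes. Hpca and Necab1 lie higher in D2 and Hpcal1 and Hpcal4 higher in D1 in 3 of 3 libraries, while only the Necab1 points of the 2 classes do not overlap.

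Hpca differed in the same direction in each library: 1201 against 1937, 415 against 691 and 919 against 1143 CPM, D1 against D2. The fitted change was -0.60 ± 0.07 on the log2 scale (edgeR adjusted p = 1.36e-12, over the alternatives 1.28e-17 to 1). The library values of the classes overlapped, since the libraries differed by more than the classes, and the call is lost when the library is not a block. Necab1 had a log2 fold change of -0.55 ± 0.13 (adjusted p = 0.00273). Its D1 values of 59.9, 69.5 and 58.3 CPM all lay below its D2 values of 106, 90.6 and 105.

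Hpcal1 was at 9.98, 24.5 and 47.7 CPM in D1-gated against 2.94, 10.9 and 15.8 CPM in D2-gated neurons, with a log2 fold change of 1.29 ± 0.25 (adjusted p = 7.93e-05). The D1 counts were 3, 94 and 36 UMIs and the D2 counts 1, 32 and 14. A Hpcal1 UMI was in 1.18%, 6.43% and 9.52% of D1-gated cells and in 0.339%, 2.84% and 3.39% of D2-gated cells. It was in 7.54%, 6.03% and 10.2% of microglia, which held more Hpcal1 than spiny neurons and are no background for it. The pooled gated non-neuronal cells were at 21.6, 30.35 and 34.9 CPM. Within each library only the D1-gated neurons of library 3 exceeded that level, and the part of free RNA in this difference was not tested. Hpcal4 had a log2 fold change of 0.36 ± 0.09 (adjusted p = 0.00293). Calb1 was lower in D1 in 3 of 3 libraries but was not called (log2 fold change -0.22 ± 0.07, adjusted p = 0.0875), and with the stricter gate its adjusted p was 0.0411. Necab2 (-0.05, adjusted p = 0.96), Necab3 (-0.18, adjusted p = 0.928) and Ncald (-0.34, adjusted p = 0.536) were not called. Without library 3 the calls fell from 4 to 1, Hpca. DESeq2 also called only Hpca.

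Glutamatergic neurons, which are not among the intrinsic GABAergic neurons of the nucleus accumbens, were compared with spiny neurons. The glutamatergic, Sst-Npy and Pthlh comparisons share the spiny neurons as their reference, so their values are given side by side and not as independent tests of each other. Of 8 genes tested, 3 were higher and 3 lower in glutamatergic neurons, where 15.5% of 8783 genes were called, 8.20% higher and 7.28% lower. The median log2 fold change was 0.67 over the 8 genes and -0.06 over all genes. The depth per cell differed, with medians of 1844, 4634 and 7631 UMIs in the glutamatergic gate.

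Among the genes that were lower, Calb1 (43.0, 76.0 and 10.4 CPM against 319, 726 and 639 in spiny neurons) had a log2 fold change of -3.98 ± 0.46 (edgeR adjusted p = 0.000972). Necab2 changed by -2.84 ± 0.30 (adjusted p = 0.000676) and Hpca by -1.78 ± 0.17 (adjusted p = 0.000452). Each was lower in 3 of 3 libraries and the groups did not overlap. The Calb1 and Necab2 levels of library 2 in glutamatergic neurons (76.0 and 54.8 CPM) stand beside 59.2 and 36.1 CPM in non-neuronal cells of that library.

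Among the genes that were higher, Ncald changed by 3.99 ± 0.54 (adjusted p = 0.00202) and Necab3 by 3.18 ± 0.23 (adjusted p = 0.000164). Hpcal1 changed by 1.17 ± 0.31 (adjusted p = 0.0386), with 43.0, 45.8 and 47.4 CPM against 6.25, 18.6 and 30.4. Hpcal4 (0.69, adjusted p = 0.155) and Necab1 (0.65, adjusted p = 0.123) were not called. Without library 3 only 1 of the 10 genes was called, Calb1.

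**Figure D3:**
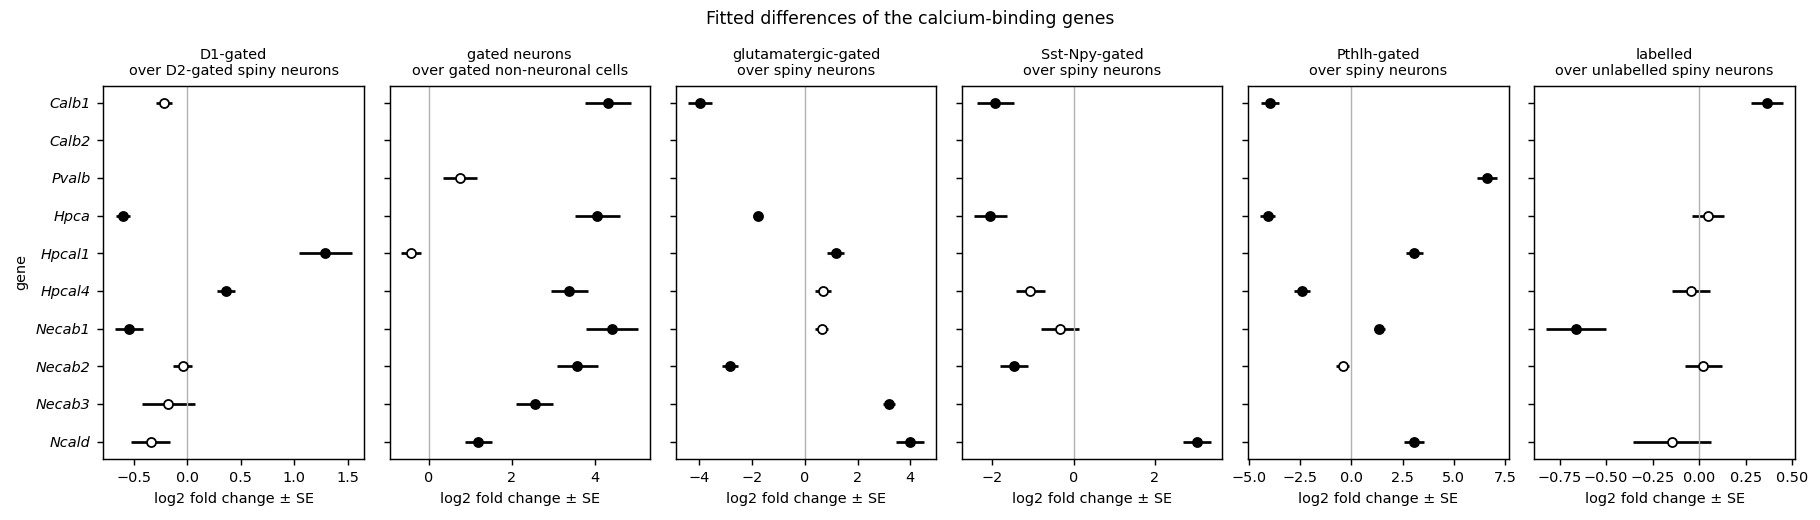
Fitted log2 fold changes (x axis, with its own range in each of the 6 panels) with bars of 1 standard error. Filled points are called, open points are not, and a gap is a gene not tested. Pvalb in Pthlh-gated over spiny neurons has the largest value shown, 6.62, and Calb1 is below 0 in each of the 3 comparisons against spiny neurons.

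Interneurons were few, and only library 2 had 10 cells or more in these gates, so arms of at least 5 cells were used. In Pthlh interneurons over spiny neurons, 4 of 8 genes tested were higher and 3 lower, where 14.7% of 6765 genes were called, 5.91% higher and 8.78% lower. The median log2 fold change was 0.47 over the 8 genes and -0.18 over all genes. Pvalb had a log2 fold change of 6.62 ± 0.47 (edgeR adjusted p = 3.05e-05). Hpcal1 changed by 3.07 ± 0.40 (adjusted p = 0.000762), Ncald by 3.05 ± 0.49 (adjusted p = 0.00263) and Necab1 by 1.36 ± 0.27 (adjusted p = 0.00796). Hpca changed by -4.08 ± 0.37 (adjusted p = 9.68e-05), Calb1 by -3.97 ± 0.46 (adjusted p = 0.00017) and Hpcal4 by -2.41 ± 0.41 (adjusted p = 0.00316). Calb1 counts in this gate were 0, 8 and 0 UMIs. Necab2 was not called (-0.42, adjusted p = 0.423). All 7 called genes moved the same way in 3 of 3 libraries. Leaving out any 1 library left 0 of the 10 genes called by edgeR.

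In Sst-Npy interneurons over spiny neurons, 1 of 6 genes tested was higher and 3 lower, where 8.50% of 6659 genes were called, 4.13% higher and 4.37% lower. The median log2 fold change was -1.27 over the 6 genes and -0.12 over all genes. Ncald was the gene that was higher, by 3.03 ± 0.33 (edgeR adjusted p = 0.000241). Hpca changed by -2.05 ± 0.40 (adjusted p = 0.00982), Calb1 by -1.93 ± 0.46 (adjusted p = 0.0243) and Necab2 by -1.47 ± 0.34 (adjusted p = 0.0201). Calb1 UMIs were 0, 44 and 1, so its level of 0, 283 and 22.8 CPM rests on library 2. Hpcal4 (-1.07, adjusted p = 0.101) and Necab1 (-0.34, adjusted p = 0.768) were not called. Here too, 0 of the 10 genes were called by edgeR when any 1 library was left out.

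The recorder's own readout was compared last. Spiny neurons with at least 1 mCherry UMI (labelled) were compared with those with none, within each library and gate. The 6 pairs of library and gate come from 3 libraries. They were fitted as independent, which the D1 and D2 pairs of a library are not. The p-values of this comparison therefore do not measure the spread between libraries alone. Labelled cells numbered 15, 320 and 33 in the D1 gate and 13, 168 and 26 in the D2 gate, so the comparison is thin outside library 2. They were also deeper: their median was 3298 against 2306 UMIs in D1-gated and 3317 against 2510 in D2-gated neurons of library 2. Of 6 genes tested, 1 was higher and 1 lower, where 0.564% of 6911 genes were called, 0.289% higher and 0.275% lower. The median log2 fold change was -0.01 over the 6 genes and -0.01 over all genes.

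**Figure D4:**
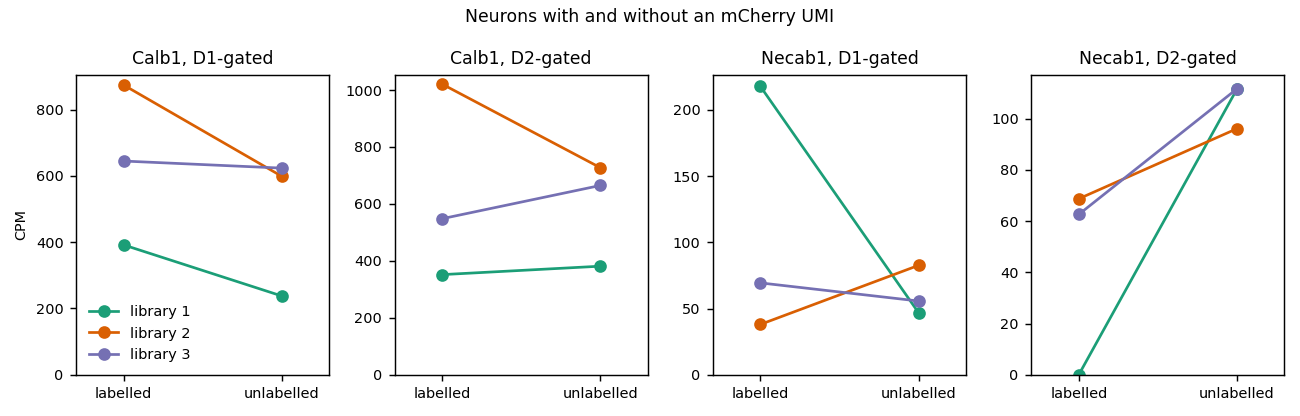
CPM of Calb1 and Necab1 in labelled and unlabelled neurons of each library, by gate, with 1 line per library. The lines of library 2 rise to the labelled side for Calb1 in both gates, while libraries 1 and 3 are higher on that side in D1-gated and lower in D2-gated neurons. Necab1 is lower on the labelled side in 3 of 3 libraries of the D2 gate and in 1 of 3 of the D1 gate.

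Calb1 was at 392, 874 and 645 CPM in labelled against 238, 599 and 624 CPM in unlabelled D1-gated neurons. In D2-gated neurons it was at 352, 1021 and 548 against 381, 728 and 665. Its log2 fold change was 0.36 ± 0.09 (edgeR adjusted p = 0.00721), higher in 4 of 6 pairs of library and gate. Without library 2 the change was -0.07 (adjusted p = 0.957), and against unlabelled cells matched on UMIs it was 0.14 (adjusted p = 0.999), so the call was lost in both. Whether the depth of labelled cells has a part in it was not tested beyond this matching. Necab1 changed by -0.66 ± 0.16 (adjusted p = 0.0135), lower in 4 of 6 pairs. In D1-gated neurons it was at 218, 38.0 and 69.3 against 46.8, 82.6 and 55.6 CPM, and in D2-gated neurons at 0, 68.8 and 62.6 against 112, 96.1 and 112. Without library 2 its change was -0.14 (adjusted p = 0.964). The call was also lost against unlabelled cells that held TEV or tTA (-0.30, adjusted p = 0.584) and with at least 2 mCherry UMIs (-1.03, adjusted p = 0.478), and with matched cells its counts were too low to test. Hpca (0.05, adjusted p = 0.888), Hpcal4 (-0.04, adjusted p = 0.908), Necab2 (0.02, adjusted p = 0.959) and Ncald (-0.15, adjusted p = 0.834) were not called. DESeq2 called 0 genes in all, and 0 of the 10 at an unadjusted p under 0.05.

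A list of 24 other EF-hand genes and partners gives the surroundings of these results. Between D1-gated and D2-gated neurons 0 of 19 tested passed edgeR's adjusted threshold, beside 2.66% of all genes. Between labelled and unlabelled neurons 0 of 18 did, beside 0.564%. Lists this short hold few or no calls at such shares. In neurons over non-neuronal cells 15 of 22 were higher and 6 lower, beside 31.0% and 34.1% of all genes. Caln1, calneuron 1 (log2 fold change 4.59), Tesc, tescalcin (3.87), and Kcnip2, a subunit of A-type potassium channels (3.81), led the higher ones. Efhd1 (-5.44), a mitochondrial EF-hand gene, S100b (-4.43), the astroglial S100 protein, and S100a13 (-4.11) led the lower ones.

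In glutamatergic over spiny neurons 6 of 20 were higher and 3 lower, beside 8.20% and 7.28% of all genes. Cabp7 (3.84), Efhd2 (3.03) and Vsnl1, visinin-like 1 (2.75), led the higher ones, and Kcnip2 (-2.62), Caln1 (-1.36) and Tesc (-1.26) were the lower ones. In Pthlh over spiny neurons 4 of 18 were higher and 6 lower, beside 5.91% and 8.78% of all genes. They were led by Kcnip1 (4.33), Vsnl1 (4.13) and Efhd2 (2.44) and by Rasgrp1, a calcium-regulated Ras activator (-4.25), Tesc (-3.21) and Kcnip2 (-2.79). In Sst-Npy over spiny neurons 3 of 18 were higher, Vsnl1 (2.93), Efhd2 (2.74) and S100a10 (2.11), and 7 were lower, led by Tesc (-3.06), Kcnip2 (-2.91) and Rasgrp1 (-2.87), beside 4.13% and 4.37% of all genes. Vsnl1, which belongs to the same sensor family as Hpca, was at 1610 ± 665 CPM in Pthlh interneurons against 77.6 ± 38.8 in spiny neurons.

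The genes with the most similar pattern were found by Pearson correlation of log2(CPM + 10) over 35 sums of library and class with at least 10 cells, among 7715 genes. These are descriptions, since the sums share libraries and classes. For Calb1 they were Akap5 (r = 0.914), Rem2 and Sh2d5. Hpca was closest to Ppp3ca, the catalytic subunit of calcineurin (r = 0.954), Cx3cl1 and Ncdn. Closest to Hpcal4 were Cdk5r2 (r = 0.966), Cplx2 and Mapk8ip2. Necab1 stood beside Mir124a-1hg (r = 0.941) and Rapgefl1, and Necab2 beside Elmod1 (r = 0.931), Rap1gap and Kcnab1. Necab3 matched Nrn1 (r = 0.879), Sv2b and Slc30a3 best, and Ncald matched Amph (r = 0.817), Gria4 and Kif3a. Hpcal1 was nearest to Ier2 (r = 0.793), Glrx and Herpud1. Pvalb was nearest to Pthlh (r = 0.799) and Calb2 to C1ql1 (r = 0.885), both of which are gate markers. The Pthlh and Sst-Npy gates enter these sums by library 2 only, and Calb2 in OPC rests on 2, 3 and 4 UMIs. Among the 10 genes, the closest pair was Hpca and Necab2 (r = 0.855), and the most opposed was Hpcal1 and Necab2 (r = -0.273).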

How the data were processed

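Single-cell RNA of 3 samples was deposited as 1 pooled table of whole UMI counts, not normalized. Per the file headers, the authors used Cell Ranger 3.0.0. Per the submitters' processing notes, the build was mm10. Libraries were made with a 10x Genomics Single Cell 3′ kit, per the labels. It is not stated whether libraries were thinned to equal depth.

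Of 11625 cells, 10291 had 300 or more detected genes and no more than 20% of UMIs from mitochondria. Scrublet (scanpy 1.11.5, expected rate 0.06) scored doublets, and the highest scores, 0.8% per 1000 cells, were removed (368 cells). Gates asked for UMIs of marker genes. A marker that matched no feature symbol was skipped. D1 and D2 gates needed 2 UMIs and 3 times those of the other list, and other gates needed 2 markers. Counts were summed per library and class. They were tested with edgeR 4.0.16 (quasi-likelihood, robust prior, TMM, filterByExpr, library as block), with DESeq2 1.42.0 as an alternative. For labelled over unlabelled neurons the block was library and gate together. Planned arms of 10 cells left 1 library for the interneuron gates, so arms of 5 cells were used there. Adjustment was Benjamini-Hochberg over all genes at 0.05. On data simulated for D1 over D2, the fit recovered 72.8% of genes changed by 1 log2 unit, and 25.7% and 22.4% for Sst-Npy and Pthlh over spiny neurons. The simulation gave all genes the same small spread and no difference between libraries, and it changed no genes of very low count. These shares therefore need not hold for the 10 genes. Coordinates are from GENCODE (GRCm38). Named genes were the 10, and up to 3 called genes of the EF-hand list in each direction, by size among those that moved the same way in every library, and the 3 most similar genes, of which 1 is not reported here. Genes and lists were chosen with earlier results of these data known.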

Additional observations from a re-analysis of the deposited data

How the results depend on the processing

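The number of the 10 genes called between D1-gated and D2-gated neurons was 4. It was 1 with DESeq2, 2 with no low-count filter, 0 with no replicate block and 1 to 4 without 1 library. In glutamatergic over spiny neurons 6 were called, and 1 to 7 without 1 library. In Sst-Npy (4) and Pthlh (7) over spiny neurons 0 were called without any 1 library. Between labelled and unlabelled neurons 2 were called. It was 0 with DESeq2, with no replicate block, with unlabelled cells matched on UMIs, with unlabelled cells that held TEV or tTA, and with at least 2 mCherry UMIs, and 0 to 2 without 1 library. For neurons over non-neuronal cells 7 were called, and 6 to 8 under all alternatives. The stricter gate for Pthlh interneurons left too few cells for a fit, so it gave no fold change. For each of these, the cause was not tested.

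Of 454 log2 fold changes recomputed, 362 had the same sign and the same call, 67 lost the call, 6 gained it and 19 changed sign. Necab2 turned to 0.045 (D1 over D2) and 0.069 (Pthlh over spiny) without library 2, with ranges without 1 library of -0.118 to 0.045 and -0.649 to 0.069. The other 17 were between labelled and unlabelled neurons. Calb1 turned to -0.07 and Necab2 to -0.412 without library 2 (ranges without 1 library -0.07 to 0.517 and -0.412 to 0.097). Hpca turned to -0.205 with no replicate block, -0.031 without library 3 (range without 1 library -0.031 to 0.12), -0.016 with matched cells and -0.083 with 2 mCherry UMIs. Hpcal4 turned to 0.028 without library 1 (range without 1 library -0.372 to 0.028), 0.002 with the stricter gate, 0.156 with matched cells and 0.236 with 2 mCherry UMIs. Necab2 turned to -0.056 with DESeq2, -0.174 with no replicate block, -0.018 with the stricter gate, -0.052 with matched cells and -0.04 with the TEV or tTA arm. Ncald turned to 0.039 with no replicate block and 0.069 with doublet scores not used. All of these except Calb1 were not called at first. Of 60 shares of cells, 44 moved by less than 1 SD and 16 moved further, all but 1 of them on thinning to 1000 UMIs.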
